A study of Mus musculus with 72 samples.

Results

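Expression of 10 genes of lipoprotein assembly was examined in mouse liver: the apolipoprotein genes Apoa1, Apoa2, Apoa4, Apoa5, Apob, Apoc2, Apoc3, Apoe and Apom, and Mttp, which encodes the microsomal triglyceride transfer protein. The 10 genes were listed by name, and the list was chosen with earlier results of these data known. Counts of called members therefore describe this list only. Each was read at a probe set that the array annotation gives to 1 gene symbol, and 9 of the 10 had such a probe set among the 19938 genes tested. The probe set of Apoc2 carries more than 1 gene symbol, so Apoc2 was not analysed here. Each of the 9 measured genes had 1 probe set.

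The livers came from single-housed, random-fed, wild-type male mice of 4 inbred strains, 129P2/OlaHsd (129), C57BL/6J (B6J), C57BL/6NTac (B6N) and C3HeB/FeJ (C3H). High-fat diet (HFD) was given for 21 days. Control mice received a low-fat diet for no longer than that per the labels' protocol, while their treatment label reads none. The HFD and control groups held 7 and 8 livers in 129 and likewise in B6J, 8 livers each in B6N, and 8 and 18 livers in C3H, 72 arrays in all. HFD mice were 17 weeks old. Control mice were 17 weeks old in 129 and 15 to 17 weeks old in the other 3 strains, so age and diet were partly confounded there.

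Lipoproteins carry lipid through blood inside a shell of apolipoproteins. In hepatocytes the transfer protein encoded by Mttp loads triglyceride and other lipid onto apolipoprotein B, the structural protein of very low density lipoprotein (VLDL), while apolipoproteins A-I and A-II form high density lipoprotein (HDL). Apolipoproteins C-II, C-III and A-V govern how fast lipoprotein lipase clears triglyceride, apolipoprotein E is a ligand of clearance receptors, and apolipoprotein M carries the lipid mediator sphingosine 1-phosphate on HDL. Apolipoprotein A-IV is a lipid-binding protein of chylomicrons, VLDL and HDL that mice make in intestine and in liver.

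All values are log2 probe set signals after robust multi-array averaging (RMA). The values stood on 3 different scales, with array medians of 6.46 to 6.65 for 129, of 4.51 to 4.67 for the B6 substrains and of 3.10 to 3.28 for C3H. Levels were therefore compared only inside each of these 3 sets. HFD effects were also compared across sets, where strain and set cannot be told apart. Differences between HFD and control livers were tested with limma, and a gene was called at a Benjamini-Hochberg adjusted p under 0.05 over all 19938 genes. All 8 measured hepatocyte markers lay above the array medians in every group, by 6.92 to 8.53 log2 units on average over the 8. The first principal component split the B6 and the C3H arrays into 2 parts each, and 129 control 6 and 129 HFD 1 lay farthest out among 129 arrays. The labels do not say what these parts are.

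Across the 9 genes the HFD response was concentrated in Apoa4. In 129, none of the 9 was called and none had an unadjusted p under 0.05, while 0.577% of all genes were called and 5.48% had such an unadjusted p. In B6J, Apoa4 was called (1 of 9, against 0.296% of all genes). In B6N, Apoa4 and Apoa5 were called (2 of 9, against 0.918%). In C3H, Apoa4 was called higher and Apom lower (2 of 9, against 0.853% of all genes called, 0.517% higher and 0.336% lower). In the mean effect over the 4 strains, Apoa4 and Apoa5 were called higher and Apom lower (3 of 9, against 3.16% of all genes called, 2.02% higher and 1.14% lower). The median effect of the 9 genes lay between -0.026 and 0.14 log2 units in the 4 strains, and the median of all genes between -0.0026 and 0.0091.

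**Figure D1:**
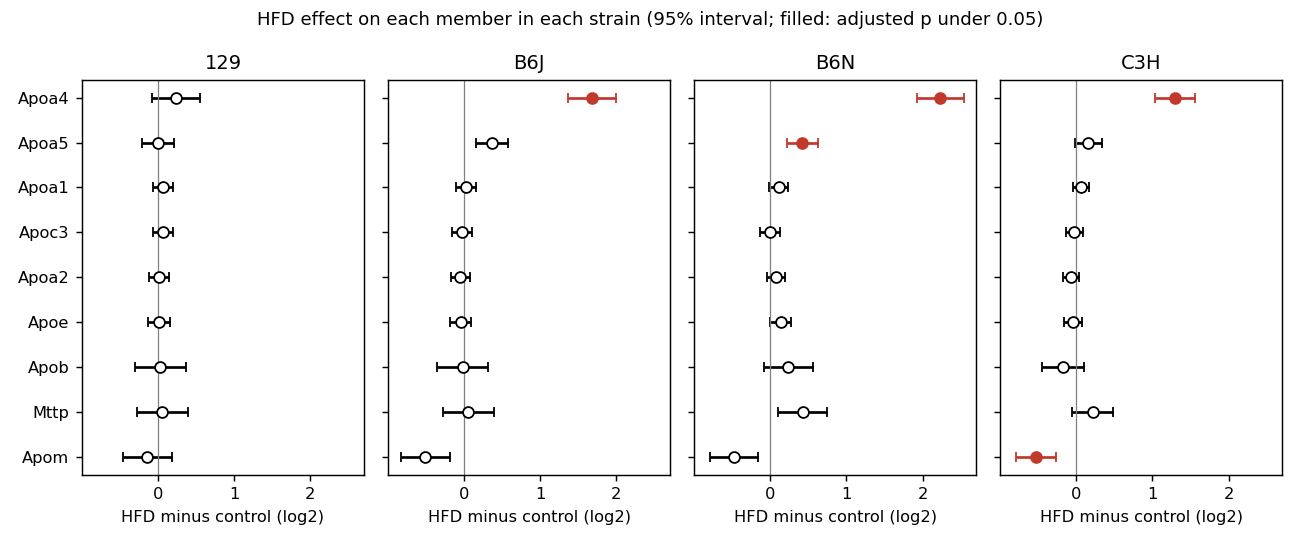
HFD minus control difference of each measured gene in each strain, in log2 units, with 95% intervals from limma. Filled red points passed an adjusted p of 0.05, which Apoa4 did in B6J, B6N and C3H, Apoa5 in B6N and Apom in C3H, while the points of the other 6 genes are open in all 4 panels.

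Apoa4 had the largest HFD minus control difference of the 9 genes in every strain. It rose in B6N, B6J and C3H livers on HFD, and in the mean over the 4 strains it ranked first by p among all 19938 genes, at 1.36 ± 0.075 (SE) and an adjusted p of 3.71e-24. The increase differed between strains, and 129 livers were the exception with a difference that did not pass the test.

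In B6N livers on HFD, Apoa4 had a lowest value of 10.66, a median of 11.54 and a highest value of 12.10, against 8.79, 9.26 and 9.56 in B6N controls. All 8 HFD livers lay above all 8 controls, as was the case for 0.241% of all genes. The difference was 2.24 ± 0.15 (SE), a 4.71-fold higher signal (95% interval 3.82 to 5.81), with an adjusted p of 6.51e-19.

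In B6J livers on HFD, Apoa4 had a lowest value of 10.55, a median of 11.004 and a highest value of 11.28, against 9.03, 9.16 and 9.50 in B6J controls. Again no HFD liver reached down to the controls, with all 7 above all 8, which held for 0.145% of all genes. Apoa4 rose 3.205-fold (2.58 to 3.98), by 1.68 ± 0.16 log2 units, and was the gene with the lowest p in B6J as in B6N (adjusted p = 4.12e-12).

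In C3H livers on HFD, Apoa4 had a lowest value of 10.85, a median of 11.28 and a highest value of 11.62, against 9.23, 9.98 and 10.81 in the 18 C3H controls. The control livers spread widely, with an SD of 0.42 against 0.29 in HFD livers, yet all 8 HFD livers lay above all controls, as in 0.0451% of all genes. The difference of 1.30 ± 0.13 corresponded to a 2.45-fold higher signal (2.05 to 2.93; adjusted p = 1.24e-11).

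In 129 livers on HFD, Apoa4 had a lowest value of 13.335, a median of 13.53 and a highest value of 13.87, against 13.06, 13.32 and 13.44 in 129 controls. The groups overlapped: all 7 HFD livers lay above the control median and 4 lay above every control. The difference was 0.24 ± 0.16, with a 95% interval of -0.073 to 0.55 and an adjusted p of 0.996. Without 129 control 6 and 129 HFD 1 it was 0.23. Over the alternatives it ran from 0.18 to 0.43, the highest after quantile normalisation over all 72 arrays (adjusted p = 0.323), so its size depended on the scale. The SE and interval rest on a spread shared by all 8 groups and not on the 129 livers alone. The Apoa4 SD was 0.18 in HFD and 0.14 in control livers of 129, and reached 0.43 in B6N livers on HFD. No member was called in 129 under any of 26 alternatives, which included a fit to the 129 arrays only.

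**Figure D2:**
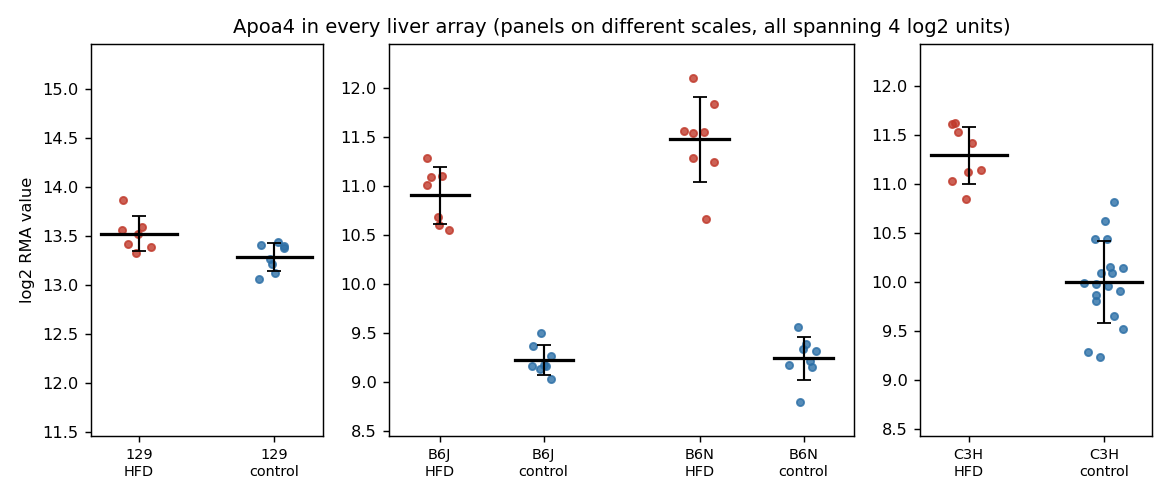
Apoa4 log2 signal in every liver, HFD in red and control in blue, with group mean (bar) and SD (whiskers). The 3 panels stand on different scales and each spans 4 log2 units, and HFD and control points are apart in B6J, B6N and C3H but overlap in 129.

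The HFD effects on Apoa4 were compared between strains. Only B6N and B6J shared a scale, so in every other comparison strain and array set cannot be told apart. A moderated F test of any difference of HFD effects between strains called 25 genes (0.125% of those tested), of which Apoa4 had the second lowest p (F = 29.5, adjusted p = 1.82e-08), and no other measured member was called. Relative to 129, the HFD effect on Apoa4 was larger by 1.44 ± 0.22 log2 units in B6J (adjusted p = 0.000213), by 1.99 ± 0.22 in B6N (adjusted p = 2.82e-09) and by 1.05 ± 0.20 in C3H (adjusted p = 0.00626). Apoa4 was the only gene called for B6J minus 129 (0.00502% of genes), had the lowest p of 8 called for B6N minus 129 (0.0401%) and stood sixth of 12 for C3H minus 129 (0.0602%). The C3H minus 129 difference was 0.73, with an adjusted p of 0.191, after quantile normalisation over all 72 arrays, an alternative added after the data had been seen.

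Among the 3 responding strains the order of effects was B6N, B6J, C3H. The B6N effect exceeded the B6J effect by 0.56 ± 0.22, with a 95% interval of 0.12 to 0.99 and an unadjusted p of 0.0132, but no gene passed adjustment in this comparison (0% called). C3H minus B6J was -0.39 ± 0.20 and was not called (interval -0.79 to 0.020; 0.0401% of genes called). C3H minus B6N was -0.94 ± 0.20 and was called (adjusted p = 0.0257; 0.0451% of genes called). That last call was lost, at -0.84 and an adjusted p of 0.38, with the replicate number as a block. In that fit, C3H controls without a same-numbered HFD liver add nothing to the C3H effect. The call was also lost on leaving out any of 8 single livers among the 42, at -0.93 to -0.85 and adjusted p 0.051 to 0.107. These were B6N controls 5 and 8, B6N HFD 1 and 5, and C3H HFD 3, 5, 6 and 7.

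**Figure D3:**
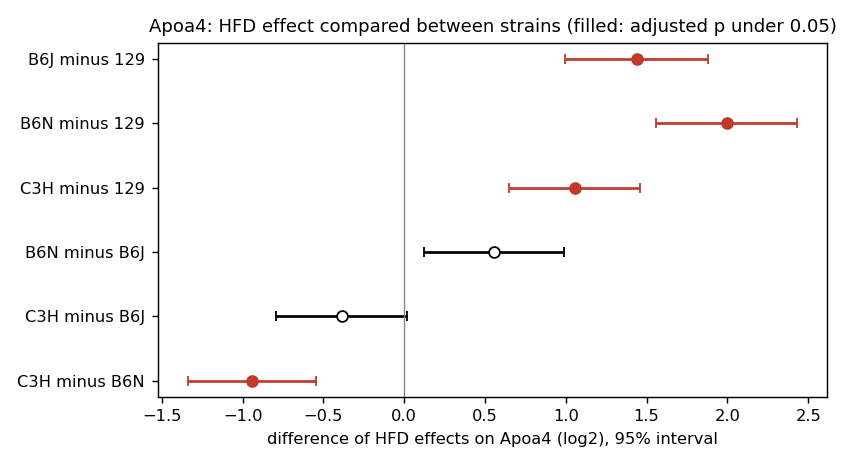
Differences between strains in the HFD effect on Apoa4, in log2 units with 95% intervals. The 3 differences from 129 lie above 0, from 1.05 to 1.99, the B6N minus B6J and C3H minus B6J differences were not called, and filled points mark an adjusted p under 0.05.

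Levels could be ordered within the B6 set, where both substrains shared a scale. HFD-fed B6N livers stood first, at 11.47 ± 0.43 (SD, n = 8), then HFD-fed B6J livers at 10.90 ± 0.29 (n = 7), then B6N controls at 9.24 ± 0.22 and B6J controls at 9.22 ± 0.15 (n = 8 each). B6N exceeded B6J on HFD by 0.57 ± 0.16, which did not pass adjustment (adjusted p = 0.152; 0 of 9 members and 0.191% of genes called, 2 of 9 and 6.14% at an unadjusted p under 0.05). That difference was called without B6N HFD 4, the lowest B6N liver on HFD (0.69, adjusted p = 0.0257). This was the only 1 of 15 single omissions that gained the call, and over all 15 the difference was 0.48 to 0.69, with adjusted p up to 0.551. With the array part as a block it was also called (0.64, adjusted p = 0.0191). The parts were drawn from these same arrays after the data had been seen, so that call is no independent support. Between controls the substrains differed by 0.016 ± 0.15 (interval -0.29 to 0.32; 0 of 9 members and 0.0351% of genes called, 3 of 9 and 6.85% at an unadjusted p under 0.05).

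The position of the Apoa4 signal among the 19938 genes of its own array gave a description that needs no shared scale, although it ranks probe signals and not RNA amounts. The median position was 45 in HFD and 61 in control livers of 129. It was 237 on HFD and 996 in controls for B6J, 125 on HFD and 885.5 in controls for B6N, and 47.5 on HFD and 210 in controls for C3H. Apoa4 thus lay near the top of the range in 129 controls. Whether this position bears on the size of the 129 difference was not tested.

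Array structure and other cell types were set beside the Apoa4 result. Within array parts 1 and 2, Apoa4 was higher on HFD by 1.78 and 1.42 log2 units for B6J, 2.16 and 2.34 for B6N, and 1.43 and 1.22 for C3H. Parts 1 and 2 held 5 and 2 HFD livers of B6J, 3 and 5 of B6N, and 4 and 4 of C3H. The controls numbered 4 and 4, 4 and 4, and 8 and 10, so some differences within parts rest on few livers. The mean of 10 enterocyte markers lay between -0.92 and 0.068 log2 units from the array median in all arrays but 1, and between 1 and 3 of the 10 had a group mean above it. The exception was 129 control 5, at 0.996 above the median, whose Apoa4 value of 13.13 was the second lowest of that group. Macrophage and Kupffer cell markers were higher on HFD in 129, by a median of 0.54, with 6 of 12 called against 0.577% of all genes. Their mean level was 2.72 ± 0.44 above the array median in HFD and 2.13 ± 0.19 in control livers. In B6J the same mean was 3.08 ± 0.255 on HFD and 2.78 ± 0.12 in controls, with 0 of 12 called and 6 of 12 at an unadjusted p under 0.05 (0.296% and 5.78% of all genes). Pancreatic acinar markers varied from 0.26 to 3.56 above the array median in B6N HFD livers and from 0.034 to 2.004 in B6N controls, with a median effect of 1.33, 0 of 14 called and 4 of 14 at an unadjusted p under 0.05 (0.918% and 5.68% of all genes). With their level as a covariate the Apoa4 effect in B6N was 2.22. The part of macrophage markers in the Apoa4 result was not tested. In bulk tissue, fewer cells of a type and less RNA per cell cannot be told apart.

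Apoa4 lies on mouse chromosome 9 in a compact cluster with Apoa1, Apoc3 and Apoa5, followed by Zpr1 and Bud13. Of its neighbours, Apoa5 was called in the mean effect and the other 4 were not. Apoa1 differed by 0.067 ± 0.031 in the mean over strains (adjusted p = 0.378), Apoc3 by 0.0023 ± 0.032, Zpr1 by 0.041 ± 0.056 and Bud13 by -0.031 ± 0.045. Apoa5 had a mean effect of 0.24 ± 0.050 (adjusted p = 7.71e-04). The promoters of Apoa4 and Apoa5, which rose, and of Apoa1, which did not pass the test, are shown as RefSeq gives them for GRCm38.p6 (250 bases before to 50 after the annotated start, plus strand, chr9:46240594-46240893 for Apoa4, chr9:46268358-46268657 for Apoa5 and chr9:46228380-46228679 for Apoa1). Capitals mark the annotated start base and any match to the 4 motifs searched on both strands.
Apoa4: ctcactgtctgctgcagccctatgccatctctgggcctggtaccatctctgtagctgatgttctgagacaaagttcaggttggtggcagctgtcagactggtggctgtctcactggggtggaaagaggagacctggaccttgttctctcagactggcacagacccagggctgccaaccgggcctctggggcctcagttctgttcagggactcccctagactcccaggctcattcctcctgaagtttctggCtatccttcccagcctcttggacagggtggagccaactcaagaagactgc
Apoa5: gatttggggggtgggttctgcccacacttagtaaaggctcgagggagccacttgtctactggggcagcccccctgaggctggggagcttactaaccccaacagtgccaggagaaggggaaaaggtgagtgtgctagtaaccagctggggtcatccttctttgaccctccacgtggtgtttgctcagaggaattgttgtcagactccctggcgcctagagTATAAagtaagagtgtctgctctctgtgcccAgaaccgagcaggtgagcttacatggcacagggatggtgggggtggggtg
Apoa1: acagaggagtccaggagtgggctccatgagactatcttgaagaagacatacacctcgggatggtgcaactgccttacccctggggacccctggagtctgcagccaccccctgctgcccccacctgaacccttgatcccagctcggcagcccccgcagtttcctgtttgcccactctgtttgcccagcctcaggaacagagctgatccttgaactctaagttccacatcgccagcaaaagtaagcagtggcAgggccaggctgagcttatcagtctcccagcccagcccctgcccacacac
The motifs were CAAAGTC, the core of the HNF4 site, AGGTCA, the hexamer bound by many nuclear receptors, TGACG, the core of the cyclic AMP response element, and TATAA. These letters occur in 4.44%, 16.3%, 20.8% and 24.9% of the 32851 mouse promoter windows of this length. The Apoa5 window, the first that RefSeq lists for this gene, holds TATAA, whose first base lies 31 bases before the annotated start, while none of the 4 motifs occurs in the Apoa4 and Apoa1 windows. A match is a description of letters and not a bound site.

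Apoa5 encodes a low-abundance plasma protein that promotes the hydrolysis of triglyceride-rich lipoproteins by lipoprotein lipase. It rose in B6N livers on HFD and in the mean over the 4 strains. In B6N livers on HFD, its lowest value was 10.70, its median 10.84 and its highest 11.27, against 10.15, 10.50 and 10.82 in B6N controls. All 8 HFD livers lay above the control median and 4 lay above every control, a difference of 0.42 ± 0.10 or 1.34-fold (1.16 to 1.54; adjusted p = 0.0154).

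In B6J livers on HFD, Apoa5 had 10.72, 10.93 and 11.03 as lowest, median and highest values, against 10.06, 10.56 and 10.71 in B6J controls. All 7 HFD livers lay above all 8 controls, although by a narrow margin, and the difference of 0.37 ± 0.11 did not pass adjustment (adjusted p = 0.147). It passed after quantile normalisation within each set (0.40, adjusted p = 0.0346) and with array weights (0.39, adjusted p = 0.0392).

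The C3H and 129 groups overlapped for Apoa5. C3H livers had 9.39, 9.79 and 9.97 on HFD against 9.25, 9.60 and 9.88 in controls (0.16 ± 0.087, adjusted p = 0.66). In 129 the values were 11.46, 11.96 and 12.46 on HFD against 11.77, 11.98 and 12.24 in controls, a difference of 0.0072 ± 0.11. No difference between strains in the Apoa5 effect was called, B6N minus 129 having the lowest unadjusted p (0.41 ± 0.15, p = 0.00633, adjusted p = 0.735).

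The B6N call of Apoa5 rested on few livers. It was lost when B6N control 6, B6N control 7, B6N HFD 3 or B6N HFD 8 was left out (0.37 to 0.39, adjusted p 0.056 to 0.070) and when only B6N arrays entered the fit (0.42, adjusted p = 0.0761). Within array parts 1 and 2 the B6N difference was 0.39 and 0.49, the B6J difference 0.31 and 0.37, and the C3H difference 0.24 and 0.10. The mean effect over the strains was called under each of 83 alternatives, at 0.22 to 0.26.

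Apom fell in C3H livers on HFD and in the mean over the 4 strains. In C3H livers on HFD, its lowest value was 7.315, its median 8.08 and its highest 8.43, against 7.82, 8.67 and 9.08 in controls. Every one of the 8 HFD livers lay below the control median, but the ranges overlapped, with 1 HFD liver below all controls. The difference was -0.53 ± 0.13, equal to a 1.44-fold lower signal (1.202 to 1.74; adjusted p = 0.0235). Beside it, 1 of 8 hepatocyte markers was called lower in C3H, against 0.336% of all genes (median effect of the 8, -0.093). In the mean effect 2 of 8 were called lower, against 1.14% (median -0.050). The part of these markers in the Apom result was not tested.

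The B6 strains showed differences of like size in Apom that were not called. B6J livers had 9.55, 9.61 and 10.07 on HFD against 9.83, 10.27 and 10.60 in controls (-0.51 ± 0.16, adjusted p = 0.286). B6N livers had 8.85, 9.50 and 9.88 on HFD against 9.37, 10.01 and 10.52 in controls (-0.48 ± 0.16, adjusted p = 0.223). All 7 HFD livers of B6J and all 8 of B6N lay below their control medians, and 5 and 3 of them lay below every control.

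In 129, Apom values were 9.84, 9.985 and 10.33 on HFD against 9.71, 10.13 and 10.41 in controls, and 6 of 7 HFD livers lay below the control median (-0.14 ± 0.16, adjusted p = 0.996). The mean effect over the strains was -0.41 ± 0.077, 1.33-fold lower (1.198 to 1.48), with an adjusted p of 1.03e-04. The F test did not call a difference between strains (F = 1.35, unadjusted p = 0.264).

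Apom was the member most tied to the array parts of the B6 livers, at 0.46 log2 units higher in part 2 than in part 1 relative to group means, and 0.30 higher in C3H. Within parts 1 and 2 it was lower on HFD in all 3 strains, with differences of -0.33 and -0.52 for B6J, -0.59 and -0.49 for B6N, and -0.38 and -0.64 for C3H. The B6N difference was called with the part as a block (-0.54, adjusted p = 0.0102) and the B6J difference with array weights (-0.57, adjusted p = 0.0359). The parts were drawn from these same arrays after the data had been seen, so the call with the part as a block is no independent support. The C3H call was lost without C3H HFD 6, the liver with the lowest value (-0.42, adjusted p = 0.133), and with the replicate number as a block (-0.30, adjusted p = 0.357). In that block fit, C3H controls without a same-numbered HFD liver add nothing to the C3H difference. The C3H call was also lost with array weights (-0.56, adjusted p = 0.0582), with only C3H arrays in the fit (adjusted p = 0.0891), within array part 1 (adjusted p = 0.366) and after quantile normalisation over all arrays (-0.46, adjusted p = 0.0574).

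Mttp, the lipid-loading factor of VLDL assembly, was not called in any strain. The closest was B6N, with 9.87, 10.27 and 10.39 on HFD against 9.31, 9.82 and 10.25 in controls, where all 8 HFD livers lay above the control median and 5 above every control (0.43 ± 0.16, unadjusted p = 0.0102, adjusted p = 0.438). In C3H the values were 8.01, 8.84 and 9.38 on HFD against 7.71, 8.695 and 9.14 in controls (0.21 ± 0.14, adjusted p = 0.753). B6J livers on HFD spread from 9.53 to 10.66, wider than the 9.87 to 10.38 of B6J controls, around nearly the same medians of 10.09 and 10.08. The mean over the strains, 0.19 ± 0.079, was not called (adjusted p = 0.29), and was called with array weights (0.21, adjusted p = 0.0415).

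**Figure D4:**
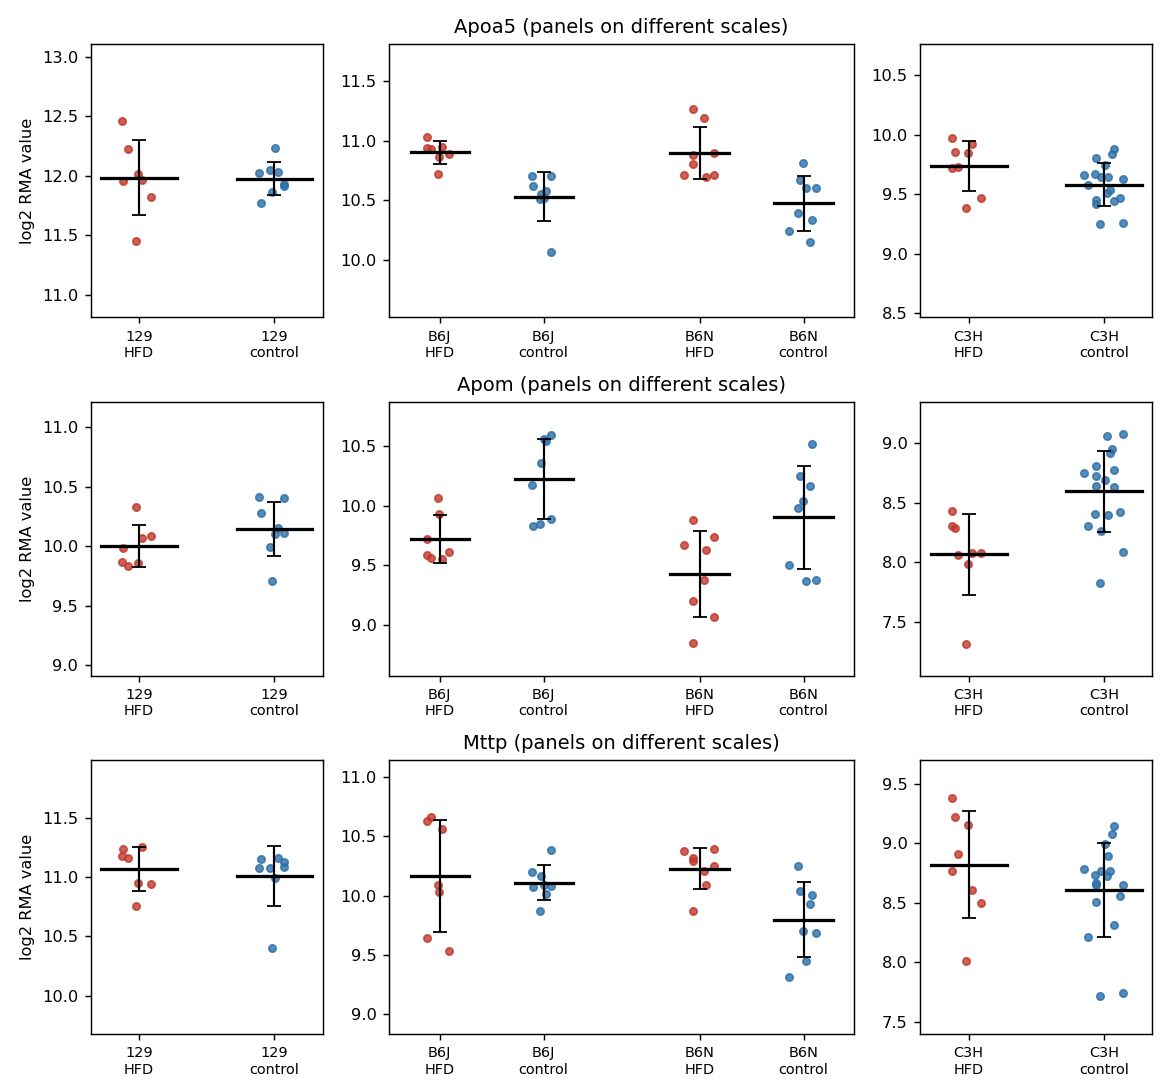
Log2 signal of Apoa5 (top), Apom (middle) and Mttp (bottom) in every liver, HFD in red left of control in blue, with mean (bar) and SD (whiskers). Panels stand on different scales and each spans the same number of log2 units, and the points show Apoa5 apart in B6J, Apom lower on HFD in B6J, B6N and C3H with overlap, and Mttp spread widely in B6J on HFD.

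Apob, which encodes the structural protein of VLDL, was not called in any strain. Its values were 11.77, 12.12 and 12.21 in B6N livers on HFD against 11.49, 11.86 and 12.33 in B6N controls (0.24 ± 0.16). The other differences were 0.031 ± 0.17 in 129, -0.019 ± 0.17 in B6J and -0.18 ± 0.14 in C3H, and the mean over the strains was 0.019 ± 0.080. In C3H, HFD values from 9.93 to 11.57 covered the whole control range of 9.94 to 11.52, and the difference was 0.18 in array part 1 and -0.55 in part 2, so its sign depended on the part.

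Apoa1 and Apoa2, the main HDL proteins, and Apoc3, an inhibitor of triglyceride clearance, were bright and steady genes. Apoa1 had strain differences of 0.029 to 0.11, with SEs of 0.054 to 0.065, and no call. Apoa2 lay at 13.45 ± 0.068 in B6N livers on HFD and 13.37 ± 0.093 in B6N controls, and its differences in the 4 strains ran from -0.071 to 0.077. Apoc3 differed by -0.029 to 0.065. The 95% intervals of these 12 differences lay between -0.18 and 0.24. These signals were among the brightest on the arrays, and the intervals describe the signal of the probe sets and not the amount of RNA.

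Apoe, a receptor ligand that lies on chromosome 7 with Apoc1, Apoc4 and Apoc2, averaged 13.70 ± 0.084 in B6N livers on HFD and 13.56 ± 0.089 in B6N controls. That difference of 0.14 ± 0.068 had an unadjusted p of 0.0453 and an adjusted p of 0.864, and 6 of 8 HFD livers lay above every control. The differences elsewhere were 0.012 (129), -0.045 (B6J) and -0.043 (C3H). The neighbours Apoc1 and Apoc4, which encode small exchangeable apolipoproteins, and Tomm40 were not called in any strain, with mean effects of -0.022 ± 0.039, 0.094 ± 0.059 and 0.013 ± 0.053.

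Further genes of lipoprotein biology were read from 5 lists, chosen like the members with earlier results of these data known. Of 12 other apolipoproteins and HDL-bound proteins, all measured, 1 was called in 129 and 0 of 12 in each of B6J, B6N and C3H (1, 2 and 1 at an unadjusted p under 0.05, limma), and in the mean effect 1 was called, against 0.577% of all genes in 129 and 3.16% in the mean effect. Saa4, a constitutive HDL-bound serum amyloid A, rose in 129 by 0.56 ± 0.13 (adjusted p = 0.0188) while its differences elsewhere were 0.019 (B6J), 0.056 (B6N) and -0.21 (C3H). Its C3H minus 129 difference was called (-0.77 ± 0.17, adjusted p = 0.0448). Pon3, an HDL-bound lactonase, fell in the mean effect by 0.23 ± 0.069 log2 units (adjusted p = 0.0469).

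None of the 16 measured of 17 VLDL assembly and secretion factors was called in any strain or in the mean effect. By limma, 1 of them had an unadjusted p under 0.05 in 129, 2 in B6J, 3 in B6N, 1 in C3H and 4 in the mean effect, against 5.48%, 5.78%, 5.68%, 8.24% and 11.1% of all genes. Their median effect lay between -0.014 and 0.067 in the 4 strains.

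Of 10 measured lipoprotein remodelling genes, 2 were called higher in the mean effect and 0 lower, against 2.02% and 1.14% of all genes. Angptl4, a secreted inhibitor of lipoprotein lipase, had a mean effect of 0.53 ± 0.095 (adjusted p = 4.35e-05) and rose in B6N by 0.83 ± 0.19 (adjusted p = 0.00914). Lipg, endothelial lipase, had a mean effect of 0.47 ± 0.099 (adjusted p = 0.00105), with differences of 0.40 to 0.52 in the 4 strains. Lpl, lipoprotein lipase, fell in C3H, with a median of 4.46 on HFD against 5.39 in controls (-0.99 ± 0.14, adjusted p = 1.21e-06). Its differences were 0.25 ± 0.17 in 129, -0.12 ± 0.17 in B6J and -0.13 ± 0.17 in B6N, and the F test of a strain difference called it (adjusted p = 0.00433).

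Among 9 measured receptor and clearance genes, 1 was called higher in the mean effect and 1 in B6N, against 2.02% of all genes higher in the mean effect and 0.918% called in B6N. Mylip, an E3 ligase that degrades the LDL receptor, had a mean effect of 0.21 ± 0.051 (adjusted p = 0.00691). Vldlr, the VLDL receptor, rose in B6N by 0.43 ± 0.12 (adjusted p = 0.0487), with a control mean 0.049 log2 units above the array median, where a signal cannot be told from background without detection calls.

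Of 15 measured transcription factors and coregulators of apolipoprotein genes, 2 were called higher in the mean effect and 0 lower, against 2.02% and 1.14% of all genes. Ppara, the fatty acid receptor PPAR alpha, had a mean effect of 0.50 ± 0.081 (adjusted p = 5.34e-06) and rose in B6N by 0.69 ± 0.17 (adjusted p = 0.0141). Its differences were 0.48 ± 0.17 in 129, 0.56 ± 0.17 in B6J and 0.29 ± 0.14 in C3H. Creb3l3, a membrane-bound factor known in mice to activate Apoa4 transcription, had a mean effect of 0.23 ± 0.058 (adjusted p = 0.00789), and single strains ranged from 0.13 (B6J) to 0.28 (129). For neither gene did the F test call a strain difference.

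The genes whose values ran most like those of Apoa4 were sought over all 72 arrays, each array taken relative to the control mean of its strain. The 5 highest Pearson correlations were with Fads2 (0.86), a fatty acid desaturase, 2010003K11Rik (0.85), Elovl5 (0.84), a fatty acid elongase, Bdh1 (0.83), a ketone body enzyme, and Mgll (0.82), monoacylglycerol lipase. These arrays share the diet contrast, so the values describe how far both genes moved with diet and strain. The choice by likeness favours genes that moved with diet, so their calls are a description: all 5 were called higher in B6N, C3H and the mean effect, and in B6J all but Elovl5 (0.53, adjusted p = 0.221). In 129, Mgll was called (0.75 ± 0.15, adjusted p = 0.00327), while Fads2 was at 0.36 ± 0.19, Bdh1 at 0.38 ± 0.10, 2010003K11Rik at 0.36 ± 0.14 and Elovl5 at -0.14 ± 0.16.

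For Apom the same measure gave C2 (0.82), a complement component, Gstp1 (0.76), a glutathione S-transferase whose near copy Gstp2 may share its probes, Gm2a (0.72), the GM2 ganglioside activator, Selenbp1 (0.71), a selenium-binding protein, and Psme1 (0.71), a proteasome activator subunit. As the choice by likeness over the diet contrast favours, all 5 were lower in the mean effect, from -0.65 ± 0.064 for Gstp1 to -0.17 ± 0.045 for Psme1. In C3H, where Apom fell, 2 of the 5 were called, Gstp1 at -0.73 ± 0.11 and Gm2a at -0.57 ± 0.11, against 0.336% of all genes called lower. Gstp1 and Gm2a were also called in B6J (-0.68 and -0.71) and, with Selenbp1, in B6N (-0.94, -0.65 and -0.75). Apom itself was not called in B6J or B6N, so these calls did not follow the Apom call.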

How the data were processed

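RNA of 72 mouse livers was hybridised, 1 array each, after miRNeasy extraction with DNase and sense-target labelling, per the labels' protocols. The deposited values are log2 signals made by the authors, whose submitters' processing notes name robust multi-array averaging (RMA) and Affymetrix Expression Console 1.1. Array medians fell into 3 sets, so no level was set across sets. The annotation gives 21789 of the 35556 probe sets a single symbol, 1621 more than 1 and 12146 none; 21698 of the first kind were matched to current symbols by Entrez identifier. For the 999 genes with several probe sets the one with the highest mean was kept, which left 19938 genes.

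The 8 group means were fitted with limma 3.58.1 in R 4.3.3 (64 residual degrees of freedom, moderated two-sided tests, Benjamini-Hochberg adjustment over all genes), and the scripts were tested on simulated data. The members and gene lists were chosen with earlier results of these data known. Named are all members, called genes of the lists (at most 5 a list), cluster neighbours and the 5 genes most correlated with Apoa4 and with Apom. Replicates are separate samples per the labels. The p-values measure the spread between them, as 1 estimate per gene shared by all 8 groups. The number of arrays limits the precision. No 2 arrays were identical (highest correlation within a group 0.995).

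Same-numbered B6N livers deviated together in 8 of 8 pairs (correlation 0.10 to 0.46). Apart from number 4, both livers of each pair also lay in the same array part. Same-numbered B6N and B6J controls correlated as well (0.055 to 0.38). Pairing of livers and shared array structure cannot be told apart, so the main tests were unpaired. Alternatives were quantile normalisation within sets, median centring, array weights, all probe sets, a filter on dim genes, only the strains compared, a replicate block, trended and robust moderation, and each array left out. Chosen after seeing the data were array parts (sign of the first principal component), the omission of 129 control 6 and HFD 1, quantile normalisation over all arrays and an acinar covariate. Promoter sequences are from RefSeq.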

Additional observations from a re-analysis of the deposited data

Results flagged for a closer look

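Each of the 9 genes was checked in each group of 4 to 10 livers, which leaves out the 18 C3H controls. In 5 of these 63 combinations (7.94%), the extreme liver lay farther from its neighbour than Dixon's 95% limit allows. Chance gives this in about 1 in 20, but the combinations share livers and are not independent. These were the lowest values of Apoa5 in B6J control 8 (10.062, next 10.508), Apoe in 129 control 6 (13.827, next 14.005), Apoe in B6J HFD 3 (13.412, next 13.613), Apom in C3H HFD 6 (7.315, next 7.982) and Mttp in 129 control 6 (10.404, next 10.991). The liver 129 control 6 also lay farthest out on the first principal component of the 129 arrays.

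The HFD effect on Apoa4 differed between strains in a moderated F test (adjusted p = 1.82e-08, limma). It was larger than in 129 by 1.44 log2 units in B6J, 1.99 in B6N and 1.05 in C3H, and C3H minus B6N was -0.94. For these differences strain and array set cannot be told apart.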

How the results depend on the processing

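The 3 calls in the mean effect (Apoa4, Apoa5, Apom) and the Apoa4 calls within B6J, B6N and C3H were kept under all alternatives run. No called value changed sign; 117 sign changes arose among uncalled effects, the largest of main size 0.175 (Apob in C3H). With array weights, 576 genes were called in 129 (115 in the main analysis), 129 in B6J (59), 105 in C3H (170), 71 for a strain difference (25) and 347 for B6N against B6J on HFD (38), with 3 members in B6J and 1 in C3H. With only the strain's own arrays, 41 genes were called in 129, 95 in B6J and 93 in C3H, with 1 member in B6N and in C3H. Within array parts 1 and 2, B6J gave 27 and 6 genes and B6N against B6J on HFD 17 and 4; part 1 gave 49 genes in B6N, 1 for B6N against B6J controls (7) and 1 member in C3H, part 2 gave 584 genes in C3H, and either part gave 1 member in B6N. The part as a block gave 321 genes in C3H and 1 member for B6N against B6J on HFD. Quantile normalisation over all arrays gave 295 genes and 1 member in C3H, and within sets 2 members in B6J. With the replicate block, which changed no member's call in B6N, C3H kept 1 member and the strain-difference test 6 genes. Controls without a same-numbered HFD liver, most of them in C3H, add nothing to the HFD effects of that fit. The numbers were not taken to pair the livers of any strain. A correlation over 0.1 was seen in 8 of 8 pairs of B6N, 6 of 7 of 129, 5 of 7 of B6J and 1 of 8 of C3H. Leaving out 1 array gave 69 to 158 genes in 129 (lowest without HFD 6), 38 to 61 in B6J (lowest without control 5), 18 to 38 for a strain difference (lowest without 129 HFD 6, highest without 129 HFD 2) and 22 to 50 for B6N against B6J on HFD (lowest without B6N HFD 5), with 1 to 2 members in B6N, 1 to 2 in C3H and 0 to 1 on HFD. The causes were not tested, except that parts and single strains hold fewer arrays.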
